A study of Argopecten irradians irradians with 6 samples.

Results

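let-7, miR-98 and miR-125 are the microRNAs (miRNAs, short RNAs that guide repression of messenger RNAs) best known for setting developmental time. Their rows were taken from a small-RNA count table of the adductor, the shell-closing muscle, of a scallop. A row was a member when its name, after the species prefix, was let-7, miR-98 or miR-125 with any letter, copy number or arm suffix. This gave 412 of the 5446 rows: 319 let-7 names, 26 miR-98 names and 67 miR-125 names, from 101 species prefixes.

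The bay scallop Argopecten irradians irradians was sampled in a white-muscled strain, Bohai Red, and an orange-muscled strain, QN Orange, in a study of carotenoid accumulation in orange muscle. There were 3 libraries per strain, each made from 3 pooled muscles out of 9 per strain; no age, sex or treatment is known here. Colour and strain cannot be told apart in this design, and p-values measure the spread between pools. The columns carry only letters, and B was read as white and G as orange; every direction below rests on that reading, while the sizes do not.

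let-7 was found in the nematode Caenorhabditis elegans as a switch for late larval fates, and miR-125 is the relative of lin-4, the nematode switch for early ones. In flies let-7, miR-100 and miR-125 are processed from a single transcript. miR-98 is a let-7 relative named in vertebrates that has the let-7 seed, the bases that pair with targets. Of the arms of a miRNA hairpin, the 5p arm is the usual guide strand of these families and the 3p arm the usual passenger.

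Since a read could be counted under the names of several species, rows with identical counts were merged into count profiles. The 392 member names above 0 held 69 distinct profiles, 51 of let-7, 4 of miR-98 and 15 of miR-125, with 1 profile of a single count shared by let-7 and miR-125. The other 20 names were at 0 in every library. Of the 69 profiles, 4 were also held by names outside these families, the shared one included, and each of these 4 had a total of 1 count. Column totals ran from 85674751 to 152002629 counts and repeat reads over names. The sum over 1 row per family, the row with the highest total, ran from 2092825 to 4001516 counts and was used as the depth. Levels are given in CPM, counts per 1000000 of that depth after scaling between libraries by TMM, with no length term. As a check of the tissue, the muscle miRNAs miR-133 and miR-1 together with miR-206 lay at 294000 to 521000 CPM in every library. Totals of adductor muscle cannot tell fewer cells of a type from less RNA per cell.

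The let-7 pool carried the name let-7c. Of the 319 let-7 names, 28 had totals over the 6 libraries of 1252427 to 1319050 counts, and the next let-7 name, bma-let-7, had 19448. Of these 28 names, 26 were let-7c, 1 was let-7a (pol-let-7a-5p) and 1 had no letter (tcf-let-7-5p). They formed 6 profiles, 5 of which differed by at most 0.46% in total.

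The row with the highest total was mmu-let-7c-5p, the mouse name. Its counts in white muscle, by replicate number, were 192319, 172203 and 191163. Those in orange muscle were 309732, 125392 and 328241, and all later values keep that order. The low count in orange replicate 2 came with the smallest depth of the 6 libraries. In CPM the row was at 38070, 55054 and 56942 in white and at 73230, 77661 and 94527 in orange muscle. All orange libraries therefore lay above all white ones, with white replicate 1 the lowest of its group.

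The names for the form of let-7 shared by worms and many other animals were far lower. The profile with the most names, 30 names of let-7, let-7a and let-7j that include the C. elegans name, had 608, 544 and 519 counts in white and 707, 392 and 965 in orange muscle. Its total of 3735 was 353-fold below that of mmu-let-7c-5p. The owl limpet name lgi-let-7, looked up after its values were seen because it belongs to a mollusc, had a total of 3694. The fly name dme-let-7-5p had 3440. The human name hsa-let-7a-5p shared a profile with 13 others and had 5709.

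**Figure D1:**
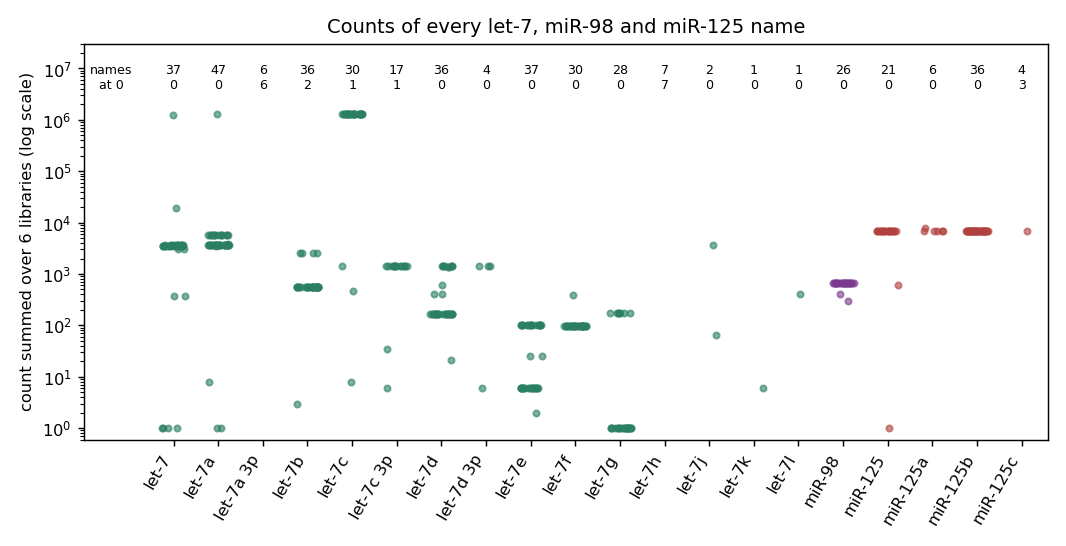
Total count over the 6 libraries (log scale) of each let-7, miR-98 and miR-125 name, 1 point per name, by lettered variant; the 3p names of let-7a, let-7c and let-7d have columns of their own, and the rows of figures give the number of names and how many were at 0. Of the 30 let-7c names labelled 5p or with no arm label, 26 sit above 1000000 counts, while the miR-125 names above 1 count sit between 6829 and 6866 except for 1 at 7890 and 1 at 600.

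A letter did not fix the count. Names of let-7a not labelled 3p ran from 1 to 1312978 counts, and unlettered let-7 names from 1 to 1252427. The let-7d names not labelled 3p ran from 21 to 1463. The let-7e names stayed at or below 101, the let-7f names at or below 382 and the let-7g names at or below 172. For let-7g, 21 names held 1 count and 7 names held 172.

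The 7 let-7h names, the 6 let-7a 3p names and 3 of the 4 miR-125c names were at 0 in all libraries. A count of 0 allows up to 3 counts, which is 0.594 to 1.86 CPM depending on the library. The fourth miR-125c name, ola-miR-125c, had 6832 counts, as many as the miR-125b names.

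Among the tested let-7 profiles, the level relative to mmu-let-7c-5p varied with the variant. This ratio lies within a library and needs no scaling between libraries. The 30-name let-7 and let-7a profile was at 0.301% ± 0.0257 of mmu-let-7c-5p in white and 0.278% ± 0.0443 in orange muscle (SD, n = 3 each). ami-let-7b-5p, the highest let-7b name, was at 0.167% ± 0.0244 and 0.211% ± 0.009. abu-let-7d was at 0.11% ± 0.0171 and 0.116% ± 0.0149. Of these, the ratio of ami-let-7b-5p alone had groups that did not overlap. The let-7b profile with the most names, aca-let-7b-5p with 29, overlapped, at 0.0381% ± 0.00235 and 0.0474% ± 0.00795. Other let-7 profiles had no overlap either, among them pma-let-7d, higher in orange muscle, and bma-let-7, lower there at 1.55% ± 0.0928 and 1.42% ± 0.038. None of these ratios was tested, and those without overlap were not counted over all let-7 profiles. With 3 against 3 libraries an exact permutation test cannot give a p below 0.1. The lack of overlap in the profiles named is therefore not read as a trait of a variant.

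miR-98 was a minor member in a single size class. All 26 names were above 0, and 24 of them had totals of 670 or 671. The row oan-miR-98 had 88, 91 and 88 counts in white and 156, 79 and 169 in orange muscle. In CPM it was at 17.4, 29.1 and 26.2 in white and at 36.9, 48.9 and 48.7 in orange muscle. The groups did not overlap, and white replicate 1 was again the lowest library. The names of miR-98 and let-7 can share reads, since the families differ by few bases, so the pair may not be independent. Over the 6 libraries the log2 CPM of miR-98 and let-7 had a Pearson correlation of 0.97, points that share a library and its depth, while that of miR-125 and let-7 was 0.478.

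Of the 3 families, miR-125 varied most between the white libraries. The SD there was 58.3% of the mean for miR-125, against 20.8% for let-7 and 25.1% for miR-98. The row pte-miR-125a-5p, the highest, had 1480, 1077 and 272 counts in white and 2369, 659 and 2033 in orange muscle. In CPM it was at 293, 344 and 81.0 in white and at 560, 408 and 585 in orange muscle. White replicate 3 stood 3.93-fold below the mean of the other white libraries, whereas let-7 and miR-98 there lay slightly above the mean of the other white libraries. Of the 54 families with a mean of at least 100 CPM, 9 were at least 3-fold lower in white replicate 3 than in the mean of the other white libraries. The other 8 were miR-10, miR-183, miR-1990, miR-263, miR-278, miR-279, miR-315 and miR-8, and the same 8 families met that measure in white replicate 2, where white replicate 1 was the high library. miR-125 met it only in white replicate 3. The part of this library in the miR-125 difference was measured by leaving it out, which moved the log2 difference from 1.11 to 0.79.

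Nearly all other miR-125 names agreed closely with each other. The most widely named profile, of ami-miR-125b-5p and 12 more names, had 1237, 1083 and 278 counts in white and 1564, 703 and 2001 in orange muscle. pte-miR-125a-5p exceeded it by 243 counts in white replicate 1 and by 805 in orange replicate 1. In the other libraries the 2 rows were within 44 counts of each other, in both directions. With the most widely named profile standing for each family, the log2 difference of miR-125 was 0.82 (SE 0.564, adjusted p = 0.376, edgeR).

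**Figure D2:**
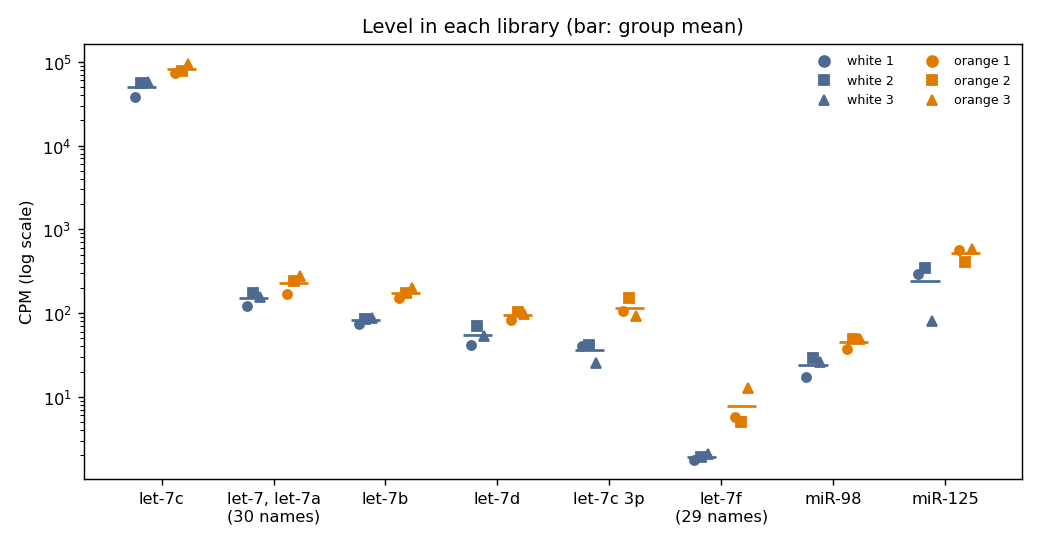
Level in CPM (log scale) of 8 count profiles of let-7, miR-98 and miR-125 in each of the 3 white and 3 orange libraries; horizontal bars are group means. let-7c stands at 38070 to 94527 CPM against at most 585 CPM for the others shown, and white replicate 3 is the low point of miR-125 at 81.0 CPM.

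Between strains, none of the 3 families passed the threshold of an adjusted p of 0.05. Fitted with 1 row per family, let-7 was at 50022 ± 10390 CPM in white and 81806 ± 11240 CPM in orange muscle (SD, n = 3), which is 0.71 on the log2 scale (SE 0.23, unadjusted p = 0.0156, adjusted p = 0.123, edgeR's quasi-likelihood test). miR-98 was at 24.2 ± 6.08 and 44.8 ± 6.88 CPM, which is 0.89 on the log2 scale (SE 0.507, adjusted p = 0.285, edgeR). miR-125 was at 239 ± 140 and 518 ± 95.9 CPM, which is 1.11 on the log2 scale (SE 0.611, adjusted p = 0.27, edgeR). The 142 families tested include predicted miRNAs, each counted as a family of its own. Of the 142, 13 passed in either direction, or 9.15%, and 7 of them were higher in orange muscle, or 4.93%. At an unadjusted p under 0.05 there were 38, or 26.8%, let-7 among them.

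For each of the 3 families every orange library lay above every white one, which held for 29 of the 142 tested families, or 20.4%, and in either direction for 50, or 35.2%. All 3 differences were above 0, as were 59.2% of those tested. The median log2 difference of all tested families was 0.20, and relative to it the differences were 0.51 for let-7, 0.69 for miR-98 and 0.91 for miR-125. The let-7 call turned on how names were combined: the sum over distinct profiles gave 0.72 with an adjusted p of 0.0395, and the sum over all names 0.80 with an adjusted p of 0.0292 (edgeR). Over all tested families those settings called 15 of 142 and 14 of 156. Without white replicate 1, which had the highest TMM factor, 1.26, the let-7 difference was 0.47 (adjusted p = 0.134, edgeR). The median of all tested families was then 0.48, so that let-7 no longer stood above it. The differences of miR-98 and miR-125 without that library were 0.61 and 1.28.

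**Figure D3:**
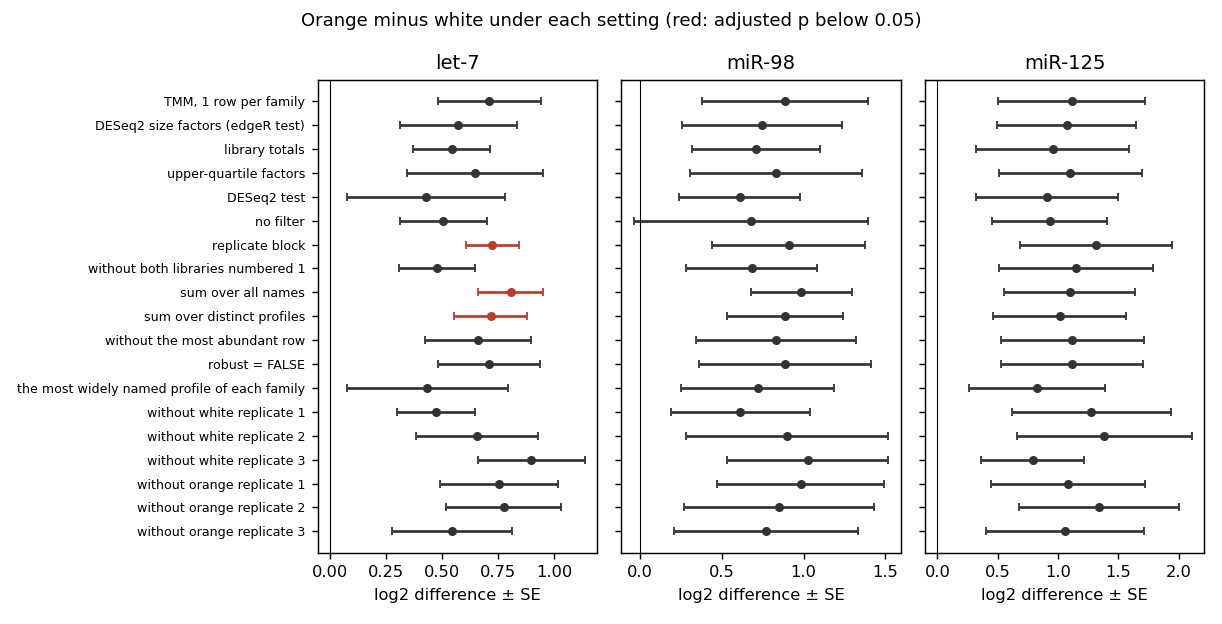
Log2 difference, orange minus white, with its SE for let-7, miR-98 and miR-125 under each processing setting; the first line is the value given in the text and red marks an adjusted p below 0.05. All values lie above 0, from 0.43 to 0.90 for let-7, and red appears for let-7 under 3 settings and for the other families under none.

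miR-100 is, with miR-125, a partner of let-7 in the fly cluster, and miR-99 is a relative of miR-100 by sequence. miR-100 was at 103960, 148380 and 129080 CPM in white and at 188040, 260960 and 234140 CPM in orange muscle, and rose by 0.84 on the log2 scale (SE 0.212, adjusted p = 0.0484, edgeR). For miR-99 the log2 difference was 1.69 (SE 0.613, adjusted p = 0.158, edgeR), with 10287 CPM in orange replicate 1 against 2531 and 2236 CPM in the other orange libraries. Of miR-100 and miR-99, 1 of 2 passed, and its call was lost without white replicate 2 and without white replicate 3, when 0 families passed by edgeR (29 and 34 at an unadjusted p under 0.05).

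Ratios within a library compare let-7, miR-100, miR-125 and miR-98 without scaling. Of these, miR-98 is not among the fly cluster members named above. The log2 ratio of let-7 to miR-100 was -1.35 ± 0.15 in white and -1.47 ± 0.24 in orange muscle, a difference of -0.12 (exact two-sided permutation p = 0.6, adjusted p = 0.8 over 4 ratios). Without orange replicate 2 the sign turned, to 0.019. The ratio of let-7 to miR-98 was 11.01 ± 0.117 and 10.83 ± 0.181, a difference of -0.18 (exact permutation p = 0.3, adjusted p = 0.8). The smallest p that 3 against 3 libraries allow is 0.1.

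The ratios that involve miR-125 were less certain. let-7 to miR-125 had a log2 ratio of 7.93 ± 1.33 in white and 7.31 ± 0.271 in orange muscle (exact permutation p = 0.9, adjusted p = 0.9), and miR-125 to miR-100 one of -9.29 ± 1.18 and -8.78 ± 0.48 (exact permutation p = 0.6, adjusted p = 0.8). Without white replicate 3 their differences changed sign, from -0.62 to 0.14 and from 0.50 to -0.17. The groups overlapped in all 4 ratios.

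Of the other relatives of let-7 and lin-4 looked for, lin-4 itself, miR-237, miR-48, miR-84, miR-241, miR-793, miR-794, miR-795 and miR-202, 1 of 9 had a row in the table and it was at 0. Over the 6 libraries the 59 other tested families with a name were ranked by the likeness of their log2 CPM to that of let-7, and predicted miRNAs were not ranked. The first were miR-46 (Pearson r = 0.986), miR-281 (0.985) and miR-194 (0.978). These points share the strain difference and the scaling of the libraries. miR-46 was at 32.3, 106 and 140 CPM in white and at 500, 1018 and 2012 CPM in orange muscle. miR-46 and miR-281 rose by 3.66 and 3.62 on the log2 scale (SE 0.78 and 0.768, adjusted p = 0.0257 each, edgeR), with calls that were lost without either of the same libraries. Their likeness to let-7 is in the order of the libraries and not in the size of the difference.

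At the level of single profiles, 56 of the 69 member profiles passed the filter on low counts and were tested among 634 profiles of the whole table. None of the 56 passed the adjusted threshold by edgeR, and none of the 634 did (0%). At an unadjusted p under 0.05 there were 12 of the 56, all higher in orange muscle, against 15.6% of the 634 in that direction. DESeq2 called 2 of the 56 and 35 of the 635 it tested. All 56 had a log2 difference above 0, as had 63.9% of all tested profiles. With TMM factors computed over the profiles, 9 of 57 fell below 0. The median of the 56 was 0.84 against 0.17 for all 634, a gap of 0.67 that was 0.204 without white replicate 1. The orange libraries lay above the white ones in 41 of the 56, and in 27.4% of the 634 (33.6% in either direction). These 56 repeat each other's reads, and they are not independent observations.

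Within families the differences varied little for miR-125, from 1.03 to 1.11 over 14 profiles, and little for miR-98, from 0.81 to 1.01 over 4 profiles. For let-7 they ran from 0.24 to 2.01 over 38 profiles, with a median of 0.71. The 6 let-7c-type profiles had log2 differences of 0.71 to 0.72. In 15 of the 38 let-7 profiles the groups overlapped. Among these was the 30-name let-7 and let-7a profile, whose log2 difference was 0.62 (SE 0.367, adjusted p = 0.345, edgeR). In it orange replicate 1, at 167 CPM, lay below white replicate 2, at 174 CPM. The smallest tested difference was that of bta-let-7e at 0.24 (SE 0.525), which was at 12 to 22 counts in white and 8 to 25 in orange muscle.

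**Figure D4:**
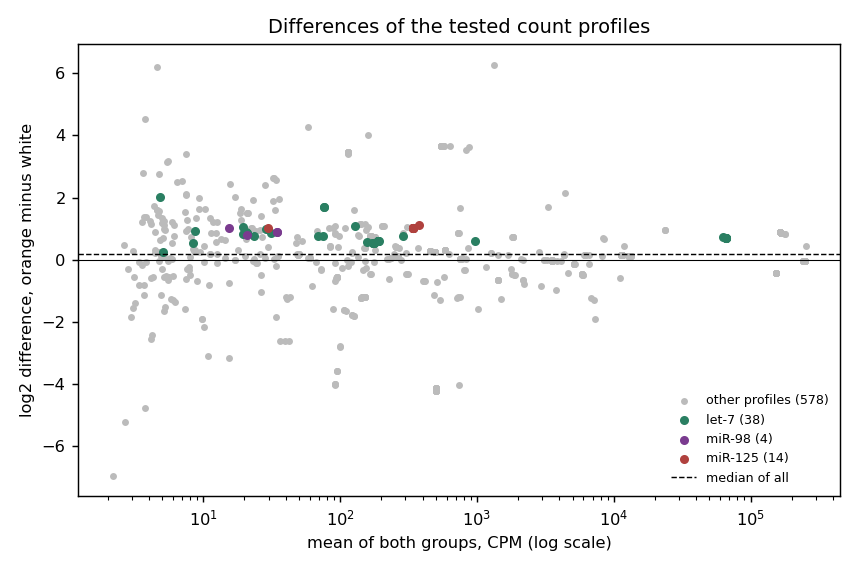
Log2 difference, orange minus white, against the mean level in CPM (log scale) for the 634 tested count profiles; let-7, miR-98 and miR-125 profiles are coloured and the dashed line is the median of all. The 56 coloured points all lie above 0, between 0.24 and 2.01, within the range of the other profiles.

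The largest let-7 differences with at least 20 counts per library were those of the 3p arm. The profile of aca-let-7c-1-3p, which 11 names share, had 204, 130 and 86 counts in white and 450, 242 and 318 in orange muscle. In CPM it was at 40.4, 41.6 and 25.6 in white and at 106, 150 and 91.6 in orange muscle, so the groups did not overlap. Its log2 difference was 1.69 (SE 0.441, adjusted p = 0.0744, edgeR) and so it did not pass. By DESeq2 it passed, at 1.55 (SE 0.395, adjusted p = 0.00219), and it also passed without both libraries numbered 1, at 1.84 (SE 0.43, adjusted p = 0.0491, edgeR). Over the whole table those settings called 35 of 635 and 88 of 639 profiles. Over the 14 other settings its adjusted p ran from 0.00219 to 0.263. The 7 names of dre-let-7d-3p differed from this profile by 2 counts in orange replicate 1 and are not a second observation.

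By the listed names, the 3p arm was a very small part of let-7. No sequences were used, so 3p reads that matched no listed name are not in this share. Set against mmu-let-7c-5p, the row aca-let-7c-1-3p made up 0.0755% ± 0.0305 of the counts of both rows in white and 0.145% ± 0.0479 in orange muscle (SD, n = 3). By library the share was 0.106%, 0.0754% and 0.045% in white muscle and 0.145%, 0.193% and 0.0968% in orange muscle. White replicate 1 lay above orange replicate 3, so these shares overlapped between groups, and their 95% Wilson intervals, 0.0924% to 0.122% and 0.0867% to 0.108%, overlapped too. The intervals cover counting error only. No test of the shares was made. No 3p name was listed for miR-98 or miR-125.

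**Figure D5:**
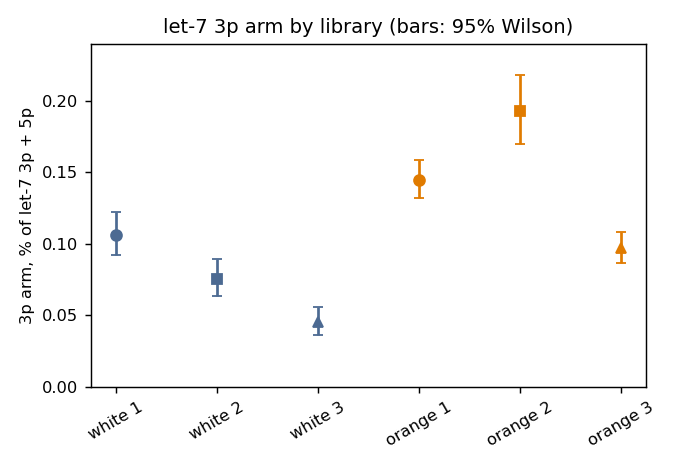
Share of the 3p arm in the summed counts of the highest let-7 3p and 5p rows, in percent, for each library, with 95% Wilson intervals that cover counting error only. The white libraries lie at 0.045% to 0.106% and the orange ones at 0.0968% to 0.193%, so white replicate 1 and orange replicate 3 overlap.

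The profile of aca-let-7f-5p, with 29 names, was the other let-7 profile at the lower end of the adjusted p-values. It had 9, 6 and 7 counts in white and 24, 8 and 44 in orange muscle, with orange higher by 2.01 on the log2 scale (SE 0.529, adjusted p = 0.0744, edgeR). The highest of its 6 values was in orange replicate 3, and without that library the difference was 1.46 (adjusted p = 0.232, edgeR). The let-7f row with the highest total, ssa-let-7f-5p, had 46, 56 and 52 counts in white and 86, 41 and 101 in orange muscle. Its log2 difference was smaller, 0.82 (SE 0.459, adjusted p = 0.308, edgeR). ami-let-7b-5p had 376, 265 and 292 counts in white and 634, 278 and 683 in orange muscle. It was at 74.4 to 87.0 CPM in white and 150 to 197 CPM in orange muscle, which is 1.08 on the log2 scale (SE 0.34, adjusted p = 0.135, edgeR).

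Markers of other cell types moved in part with these values. The ciliated cell list had 1 of 2 families above 0, miR-34. It was at 128 to 149 CPM in white and 178 to 274 CPM in orange muscle, with no overlap. For miR-34 the log2 difference was 0.74 (SE 0.453, adjusted p = 0.307, edgeR). Every orange library lay above every white one in 20.4% of all tested families. The 7 epithelial and sensory families, all above 0, summed to 1460 to 7520 CPM in white and 2530 to 4810 CPM in orange muscle. The neural list, with miR-128 at 0, summed to 145 to 160 CPM in white and 64.8 to 769 CPM in orange muscle, where miR-124 in orange replicate 1 made up 604 CPM. The gut and digestive gland list, with miR-217 at 0, summed to 2290 to 2970 and 1200 to 2660 CPM, nearly all of it miR-216. Within that list miR-375 was at 7.32, 8.63 and 13.7 CPM in white and at 17.5, 32.2 and 126 CPM in orange muscle (log2 difference 2.57, SE 0.846, adjusted p = 0.127, edgeR). miR-194 was at 1.78, 5.75 and 3.87 CPM in white and at 8.28, 9.29 and 15.0 CPM in orange muscle (log2 difference 1.52, SE 0.667, adjusted p = 0.194, edgeR). Neither overlapped between groups, and their log2 CPM had Pearson correlations with that of let-7 of 0.872 and 0.978 over the 6 libraries. miR-216, which makes up nearly all of the list, went the other way, with a correlation of -0.664. Its log2 difference was -0.66 (SE 0.396, adjusted p = 0.306, edgeR). The blood and immune list, with miR-223 and miR-150 at 0, stayed under 1 CPM. No family of these lists passed the threshold, and their part in the let-7, miR-98 and miR-125 values was not tested.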

How the data were processed

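The authors deposited a table of whole-number counts per miRNA name, with no normalization, and a TPM table. Each deposited TPM value used equalled the count divided by its column total times 1000000, within 5e-05, so only counts were analysed. A further 9 value columns of the TPM table match no sample here and were not used. No sequences were used. As to trimming, aligner, miRNA reference and genome build, these are not given in the sources used here.

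Counts were fitted with edgeR 4.0.16 in R 4.3.3 (TMM, filterByExpr by group, robust quasi-likelihood test, Benjamini-Hochberg adjustment over all features tested, threshold 0.05), and DESeq2 1.42.0 as an alternative. Families were fitted by their row with the highest total, since sums repeat reads over names, and each predicted miRNA was its own family. Distinct count profiles were fitted with the library sizes of the family fit. Log2 differences are orange minus white, and their SE is the size divided by the square root of F. Both fits were tested on simulated data, but the outcome is not given here and no result rests on it. Rows repeat reads, so adjusted p-values over profiles lack their nominal meaning. Ratios used a pseudocount of 0.5.

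Members and lists were chosen with earlier results of these data known. Each family, letter and arm is described by its row with the highest total, with miR-100, miR-99, the let-7 and lin-4 relatives, and the 3 named families most correlated with let-7 (log2 CPM, prior count 2). Rows named outside this rule were chosen after their values were seen.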

Additional observations from a re-analysis of the deposited data

How the results depend on the processing

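Of 18 other settings, miR-98 (log2 difference 0.61 to 1.02) and miR-125 (0.79 to 1.38) stayed above 0 and short of the threshold in all. let-7 stayed above 0 in all 18 (0.43 to 0.90) and passed in 3. These were the sum over all names (0.80), the sum over distinct profiles (0.72) and the replicate block (0.72, adjusted p = 0.025, edgeR). Over all tested families these 3 settings called 14 of 156, 15 of 142 and 12 of 142. The families called, 13 with 7 higher and 6 lower, became 20 (8 higher, 12 lower) with library totals, 29 with no filter and 31 by DESeq2, and 0 to 20 when leaving out 1 library, with 0 without white replicate 2 and 0 without white replicate 3 (29 and 34 at an unadjusted p under 0.05). The member profiles called, 0 of 56, became 2 by DESeq2, 2 without both libraries numbered 1 and 6 with the replicate block. Over the whole table the same 3 settings called 35 of 635, 88 of 639 and 62 of 634 profiles. When any 1 library was left out, the member profiles called stayed at 0. The ratio differences, without each library in turn, ran from -0.20 to 0.019 for let-7 to miR-100, -1.08 to 0.14 for let-7 to miR-125, -0.25 to -0.08 for let-7 to miR-98 and -0.17 to 0.91 for miR-125 to miR-100. The cause of these changes was not tested. The deviations of same-numbered libraries correlated at 0.185, 0.0269 and 0.17 for numbers 1 to 3, and those of differently numbered ones at -0.268 to 0.185. White replicates 1 and 2 correlated best with the orange library of their number, and white replicate 3 with orange replicate 2. Whether same-numbered libraries share more than a number is not known here and cannot be told from these values. Families in the most widely named form, a setting added after seeing the data, gave 0.43, 0.72 and 0.82 for let-7, miR-98 and miR-125. Counts under about 20 per library limit most of the let-7e, let-7f and let-7g names.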
